A study of Mus musculus with 8 samples.

Results

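The 8 genes described here encode 7 enzymes of cholesterol synthesis (Hmgcs1, Idi1, Fdps, Fdft1, Sqle, Lss and Cyp51) and the endoplasmic reticulum protein Insig1. They were found by symbol among the 32285 genes of the count matrices, and all 8 were present and passed the count filter in each of the 3 fits. Their label speaks of synthesis and uptake, but none of the 8 is an uptake receptor. The RNA of single CD8 T cells of 3 donor mice had been sequenced after activation and co-culture with bone marrow stromal cells (BMSCs) whose mitochondria carried the red fluorescent protein dsRed. T cells with dsRed signal (MitoPositive) and without it (MitoNegative) were sorted, and were either sequenced directly (d0) or injected into B6 mice bearing B16KVP tumors and recovered on day 7 (d7). B16 is a mouse melanoma line. The series asked how mitochondria taken up from BMSCs affect the differentiation and function of T cells. Each of the 6 groups held 3 hashtagged samples, 1 per donor: d7 tumor MitoPositive, d7 tumor MitoNegative, d7 spleen MitoPositive, d7 spleen MitoNegative, d0 MitoPositive and d0 MitoNegative. All T cells, the MitoNegative ones included, had been activated and co-cultured, so no group had been kept without BMSCs. The deposited hashtag list marks the d7 cells as donor cells. It shows that within a donor the 2 arms at d7 came from different recipient mice and that spleen and tumor of an arm came from the same recipients, so recipient and arm cannot be told apart at d7.

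Cholesterol is built from acetyl-CoA in the endoplasmic reticulum. HMG-CoA synthase (Hmgcs1) acts at an early step, Idi1 and Fdps turn mevalonate-derived isopentenyl units into farnesyl diphosphate, Fdft1 joins farnesyl units to squalene, Sqle and Lss make and fold up squalene epoxide to lanosterol, and Cyp51 removes a methyl group from lanosterol. When membrane sterol is low, the transcription factor SREBP-2 (Srebf2) is carried by Scap to the Golgi, is cut there and activates the genes of this pathway and Insig1. INSIG1 holds Scap back when sterol is plentiful, a feedback loop. Activated T cells are known to use this pathway for new membrane, and cholesterol is known to affect T cell receptor clustering in CD8 T cells.

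From 18092 barcodes in 4 libraries, 16364 cells were used, with 30 to 3421 cells and 323344 to 26516196 UMIs (counted RNA molecules) per sample. The samples with fewest cells were d7 tumor MitoNegative (30, 85 and 112 cells in donors 1, 2 and 3) and d7 spleen MitoPositive of donor 3 (49 cells, 24 UMIs of the 8 genes). T cell markers (Cd8a and Cd8b1 among them) summed to 3258 to 5693 counts per 1000000 UMIs (CPM) in the 18 samples, and all 6 of them had UMIs in every group. Markers of stromal cells, such as the co-cultured BMSCs, summed to at most 5.12 CPM. Library pairs shared 1 to 9 barcodes. The labels conflict on the hashtags at d0: the series design, the readme and the hashtag list give odd numbers to MitoPositive cells, and this map was used, whereas the extraction protocol gives 1 to 3 to them. For the arms at d0, the members' tests, their summed level and the cell cycle sums are given under both maps, and other d0 values by arm under the first map. Levels below are CPM of the summed sample, and since 3′ UMI counts are not divided by gene length, they are compared between samples and not between genes. Counts of Fdps are uncertain, since 1124 bases of its exons are shared with Gm43738 on the same strand. Exons of Hmgcs1, Idi1, Fdft1, Lss and Cyp51 overlap those of other genes on the opposite strand, by 166 to 774 bases.

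The promoters of Idi1, Cyp51 and Insig1, which changed most between tissues among the members in the table used, and that of Hmgcs1 are shown because 7 of the 8 members were higher in the tumor than in the spleen in both arms and SREBP-2 acts through the sterol regulatory element. RefSeq's promoter table (GRCm38.p6) held 5 of the 8 members. The 250 bases before the annotated start were searched on both strands for TCACNCCAC (a sterol regulatory element), CCAAT (the CCAAT box) and GGGCGG (the GC box), and matches are in capitals, with a match on the opposite strand shown as its reverse complement.
Hmgcs1, chr13:119690101-119690350, forward strand: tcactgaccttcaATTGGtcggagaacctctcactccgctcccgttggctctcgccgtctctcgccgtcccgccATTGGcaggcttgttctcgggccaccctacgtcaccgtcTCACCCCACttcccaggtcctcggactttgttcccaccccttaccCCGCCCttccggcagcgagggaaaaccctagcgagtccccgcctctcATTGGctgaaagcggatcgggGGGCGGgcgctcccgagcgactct
Idi1, chr13:8885356-8885605, forward strand: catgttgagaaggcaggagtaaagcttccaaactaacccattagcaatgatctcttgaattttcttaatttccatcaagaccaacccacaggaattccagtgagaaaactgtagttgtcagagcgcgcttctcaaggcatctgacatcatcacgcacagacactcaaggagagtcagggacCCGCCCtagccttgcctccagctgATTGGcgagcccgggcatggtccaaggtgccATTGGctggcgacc
Cyp51, chr5:4104698-4104947, reverse strand: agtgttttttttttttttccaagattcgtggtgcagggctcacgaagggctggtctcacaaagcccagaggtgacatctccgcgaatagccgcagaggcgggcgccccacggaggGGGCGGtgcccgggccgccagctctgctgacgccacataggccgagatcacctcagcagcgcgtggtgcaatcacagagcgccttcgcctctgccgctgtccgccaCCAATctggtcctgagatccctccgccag
Insig1, chr5:28071162-28071411, forward strand: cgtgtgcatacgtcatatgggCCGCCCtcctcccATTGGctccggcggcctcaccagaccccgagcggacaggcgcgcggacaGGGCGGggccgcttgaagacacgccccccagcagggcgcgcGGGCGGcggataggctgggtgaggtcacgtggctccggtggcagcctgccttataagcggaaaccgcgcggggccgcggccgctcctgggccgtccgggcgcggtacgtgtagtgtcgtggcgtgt
Hmgcs1 was the member with the sterol regulatory element in these letters, TCACCCCAC, from 137 to 129 bases before the start. Only this form within this window was searched, so a member without a match is not shown to lack such an element. This motif was in 1.05% of the 32851 promoters searched in the same window. The CCAAT box, in 33.8% of those promoters, was in all 5 matched members: 3 times in Hmgcs1, 2 times in Idi1 and 1 time each in Lss, Cyp51 and Insig1. The GC box, in 32.7% of promoters, was also in all 5, with 3 matches in Insig1, 2 each in Hmgcs1 and Lss and 1 each in Idi1 and Cyp51. The table did not hold Sqle, Fdps or Fdft1.

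T cells of both arms held more RNA of the 8 genes in the tumor than in the spleen or at d0. Their summed level was 322, 358 and 343 CPM in tumor MitoPositive samples and 332, 239 and 354 CPM in tumor MitoNegative samples of donors 1, 2 and 3. In the spleen it was 81.0, 87.4 and 74.2 CPM in MitoPositive and 129, 105 and 121 CPM in MitoNegative samples. The d0 samples of the 3 donors gave 80.4, 85.4 and 89.7 CPM for the MitoPositive arm and 68.0, 70.9 and 76.4 CPM for the MitoNegative arm. The lowest tumor sample thus stood above every spleen and d0 sample, the MitoPositive spleen samples stood below the MitoNegative ones, and the MitoPositive d0 samples stood above the MitoNegative ones. This d0 order rests on the hashtag map used: under the other map the d0 samples gave 80.4, 68.0 and 85.4 CPM for the MitoPositive arm and 70.9, 89.7 and 76.4 CPM for the MitoNegative arm, which overlap. Tumor samples averaged 341 ± 18.2 CPM in the MitoPositive arm and 308 ± 61.0 CPM in the MitoNegative arm, spleen samples 80.9 ± 6.58 CPM in the MitoPositive arm and 118 ± 12.4 CPM in the MitoNegative arm, and d0 samples 85.2 ± 4.64 CPM in the MitoPositive arm and 71.7 ± 4.25 CPM in the MitoNegative arm (SD, n = 3 each). Without cycling clusters the MitoPositive means were 341 (tumor), 80.1 (spleen) and 75.1 CPM (d0) and the MitoNegative means 310, 116 and 69.8 CPM. This setting left nearly all tumor cells in, so the tumor means could hardly change. Without clusters led by genes of other cell types the MitoPositive means were 341, 82.5 and 85.2 CPM and the MitoNegative means 309, 115 and 71.7 CPM, again for tumor, spleen and d0.

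**Figure D1:**
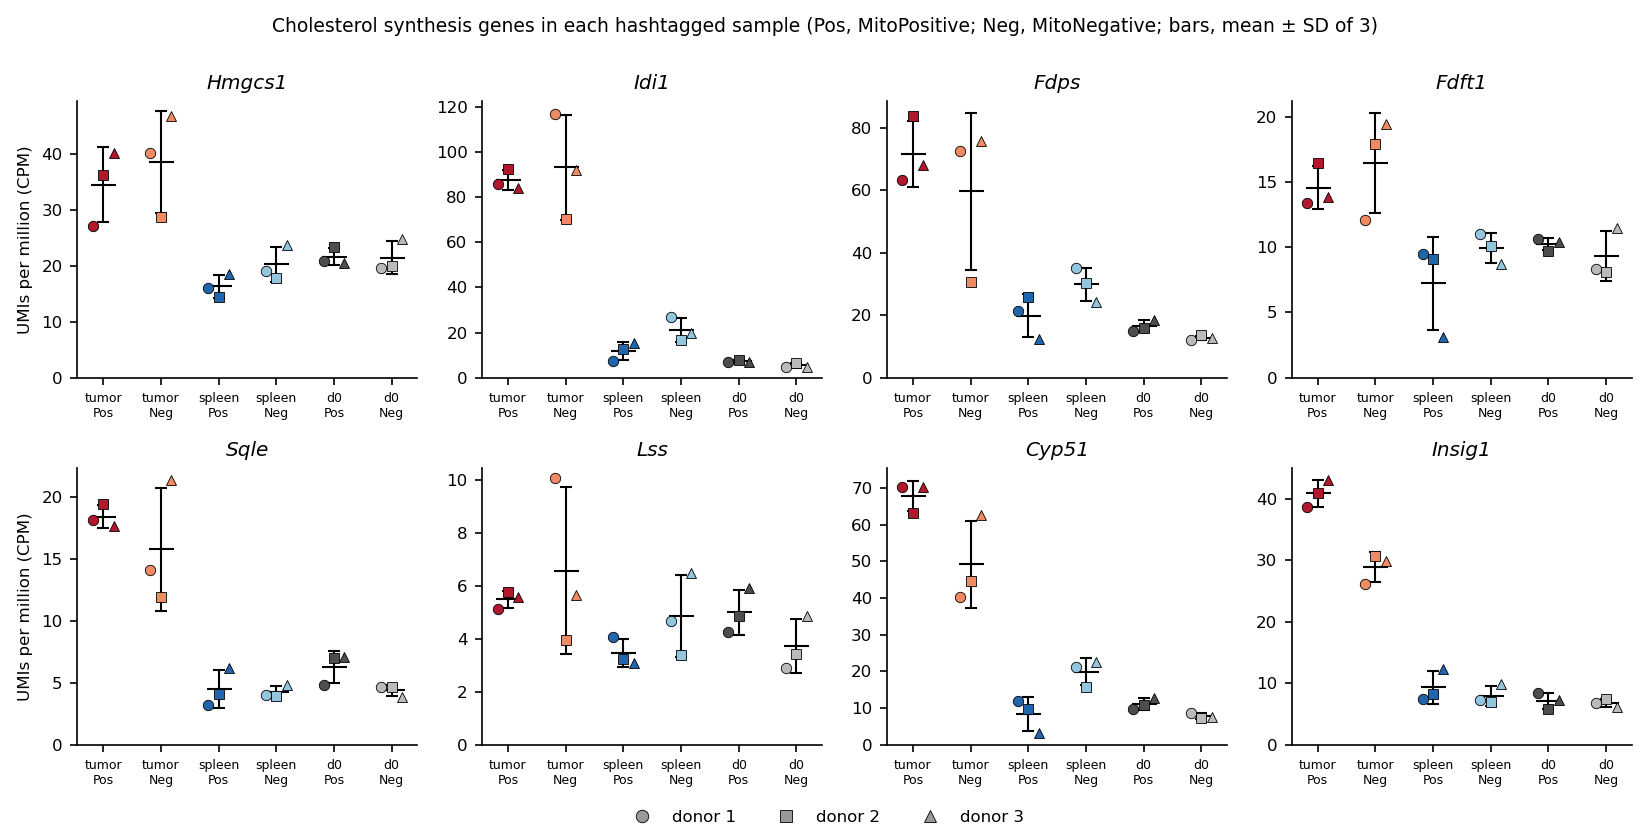
Level of each of the 8 genes (CPM, linear axis from 0) in the 18 samples, by group, with the mean ± SD of 3 samples as a bar and the donors as symbols. In Hmgcs1, Idi1, Fdft1, Sqle, Cyp51 and Insig1 every tumor sample stands above every spleen and d0 sample, with means of 87.6 CPM (Idi1) and 67.8 CPM (Cyp51) in tumor MitoPositive cells, while Lss stays between 3.09 and 10.1 CPM at d7.

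Tumor cells were deeper, with group means of the median UMIs per cell of 13578 (MitoPositive) and 14899 (MitoNegative), against 5886 (MitoPositive) and 6740 (MitoNegative) in the spleen and 7950 (MitoPositive) and 6818 (MitoNegative) at d0, so each cell was also thinned to 3000 UMIs. Thinned tumor cells held 0.825 ± 0.0751 (MitoPositive) and 0.765 ± 0.124 (MitoNegative) UMIs of the 8 genes per cell, thinned spleen cells 0.242 ± 0.0142 (MitoPositive) and 0.345 ± 0.0356 (MitoNegative), and thinned d0 cells 0.227 ± 0.0193 (MitoPositive) and 0.187 ± 0.0187 (MitoNegative) (SD, n = 3 each). The groups stood in the order of their summed CPM, except that spleen MitoPositive and d0 MitoPositive, which lay close together, changed places. At least 1 UMI of the 8 genes was found in 49.4% ± 2.55 of tumor MitoPositive, 48.5% ± 7.24 of tumor MitoNegative, 18.5% ± 1.60 of spleen MitoPositive and 24.8% ± 2.46 of spleen MitoNegative cells after thinning, and in 77.9%, 77.2%, 31.2% and 43.1% before it. At d0 the shares were 19.7% ± 1.495 (MitoPositive) and 16.7% ± 1.86 (MitoNegative) after thinning, and 38.7% and 33.2% before it. Cells with 3 or more such UMIs after thinning made up 8.42% of tumor MitoPositive and 6.86% of tumor MitoNegative cells, against 0.677% (MitoPositive) and 1.93% (MitoNegative) in the spleen and 0.311% (MitoPositive) and 0.206% (MitoNegative) at d0. Thinning left out 1 to 47 cells per tumor sample, 1 to 374 per spleen sample and 171 to 332 per d0 sample. No cell type that should lack these genes was available as a background, so the shares are read beside the CPM.

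**Figure D2:**
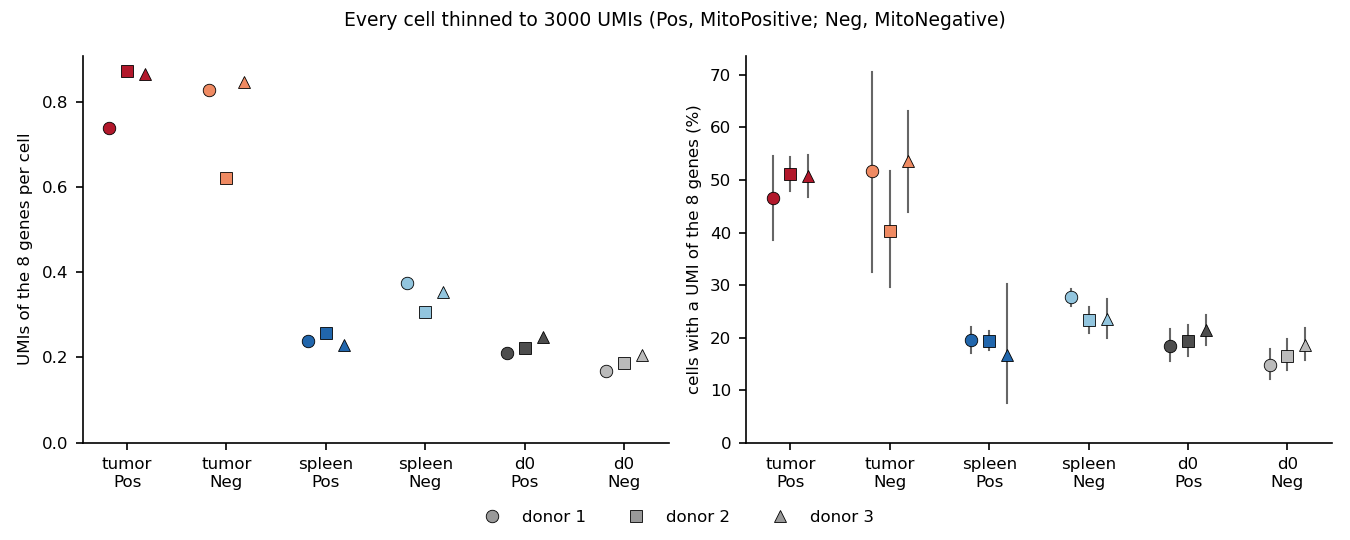
UMIs of the 8 genes per cell (left) and percent of cells with at least 1 such UMI (right, bars are exact 95% binomial intervals that cover counting error only), after thinning every cell to 3000 UMIs, for 6 groups and 3 donors. The 6 tumor samples lie above the 12 others in both panels.

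Tumor was compared with spleen within each arm. In MitoPositive cells, 7 of the 8 genes were higher in the tumor by edgeR's quasi-likelihood test (Benjamini-Hochberg adjusted p under 0.05), where 28.5% of the 11905 genes tested were higher and 28.4% lower. The members' median log2 fold change was 2.06, against -0.01 over all genes. In MitoNegative cells, 7 of 8 were also higher, where 20.2% of all genes were higher and 23.1% lower, with a median of 1.30 against -0.08. Lss was the member that passed in neither arm. The spleen MitoPositive values of donor 3 given below rested on few UMIs. There was 1 UMI each of Fdft1, Lss and Cyp51, and the highest count was 6, for Hmgcs1.

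At the head of the pathway, Hmgcs1 had 27.2, 36.3 and 40.2 CPM in tumor MitoPositive samples, against 16.1, 14.4 and 18.6 CPM in the spleen. It was higher by 1.22 ± 0.17 on the log2 scale (SE, edgeR adjusted p = 5.35e-05). In MitoNegative samples it had 40.3, 28.8 and 46.9 CPM in the tumor, against 19.1, 17.9 and 23.8 CPM in the spleen (1.02 ± 0.18, edgeR adjusted p = 6.2e-04). Tumor and spleen values did not overlap in either arm.

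Idi1, which interconverts the isopentenyl building blocks, changed most. It had 85.9, 92.6 and 84.1 CPM in tumor MitoPositive samples, against 7.40, 12.8 and 15.5 CPM in the spleen, and was 8.99-fold higher (log2 3.17 ± 0.26, edgeR adjusted p = 5.36e-07). MitoNegative samples had 117, 70.5 and 92.1 CPM in the tumor, against 27.0, 16.6 and 19.99 CPM in the spleen, a 4.50-fold difference (log2 2.17 ± 0.24, adjusted p = 1.11e-05). Every tumor sample stood far above every spleen sample.

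Fdps, the synthase of farnesyl diphosphate, had 63.5, 83.7 and 68.2 CPM in tumor MitoPositive samples, against 21.5, 25.7 and 12.4 CPM in the spleen (log2 1.79 ± 0.27, edgeR adjusted p = 8.38e-05). In MitoNegative samples it had 72.5, 30.8 and 76.0 CPM in the tumor, against 35.1, 30.2 and 24.3 CPM in the spleen (1.11 ± 0.28, adjusted p = 0.00603). Here the groups overlapped, because the tumor sample of donor 2 stood at the level of the spleen samples. Without donor 3 the MitoNegative difference was 0.58 and did not pass (adjusted p = 0.209).

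Fdft1, squalene synthase, had 13.4, 16.4 and 13.9 CPM in tumor MitoPositive samples, against 9.50, 9.06 and 3.09 CPM in the spleen (log2 0.89 ± 0.22, edgeR adjusted p = 0.00419). MitoNegative samples had 12.1, 17.9 and 19.4 CPM in the tumor, against 10.97, 10.1 and 8.67 CPM in the spleen (0.94 ± 0.25, adjusted p = 0.00865). The groups did not overlap, but the smallest gap, in MitoNegative cells, was that between 12.1 and 10.97 CPM. In the MitoPositive arm Fdft1 did not pass without donor 2 (0.84, adjusted p = 0.105). In the MitoNegative arm it did not pass without donor 2 (0.98, adjusted p = 0.0588) or without donor 3 (0.67, adjusted p = 0.164).

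Sqle, squalene epoxidase, had 18.1, 19.5 and 17.7 CPM in tumor MitoPositive samples, against 3.21, 4.10 and 6.19 CPM in the spleen, a 5.04-fold difference (log2 2.33 ± 0.24, edgeR adjusted p = 4.32e-06). MitoNegative samples had 14.1, 11.9 and 21.4 CPM in the tumor, against 4.04, 3.91 and 4.82 CPM in the spleen (2.06 ± 0.27, adjusted p = 4.76e-05). Lss, which closes the sterol rings, had 5.12, 5.75 and 5.58 CPM in tumor MitoPositive samples, against 4.05, 3.23 and 3.09 CPM in the spleen (0.73 ± 0.31, adjusted p = 0.0569). In MitoNegative cells its tumor values of 10.1, 3.97 and 5.66 CPM rested on 5, 4 and 14 UMIs and overlapped the spleen values of 4.68, 3.40 and 6.501 CPM. The 95% interval of that difference ran from -0.41 to 1.22. Lss was called in MitoPositive cells without clusters led by genes of other cell types (0.77, adjusted p = 0.0375).

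Cyp51, lanosterol demethylase, had 70.2, 63.1 and 70.1 CPM in tumor MitoPositive samples, against 11.9, 9.85 and 3.09 CPM in the spleen, and was 6.71-fold higher (log2 2.75 ± 0.19, edgeR adjusted p = 1.69e-07). MitoNegative samples had 40.3, 44.7 and 62.6 CPM in the tumor, against 21.2, 15.7 and 22.6 CPM in the spleen, a 2.80-fold difference (1.48 ± 0.19, adjusted p = 4.03e-05). Insig1, the feedback regulator, had 38.6, 41.0 and 43.1 CPM in tumor MitoPositive samples, against 7.40, 8.20 and 12.4 CPM in the spleen (5.31-fold, log2 2.41 ± 0.16, adjusted p = 1.57e-07). MitoNegative samples had 26.2, 30.8 and 29.9 CPM in the tumor, against 7.203, 6.93 and 9.87 CPM in the spleen (3.89-fold, 1.96 ± 0.18, adjusted p = 2.72e-06). Neither gene overlapped between tissues in either arm.

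**Figure D3:**
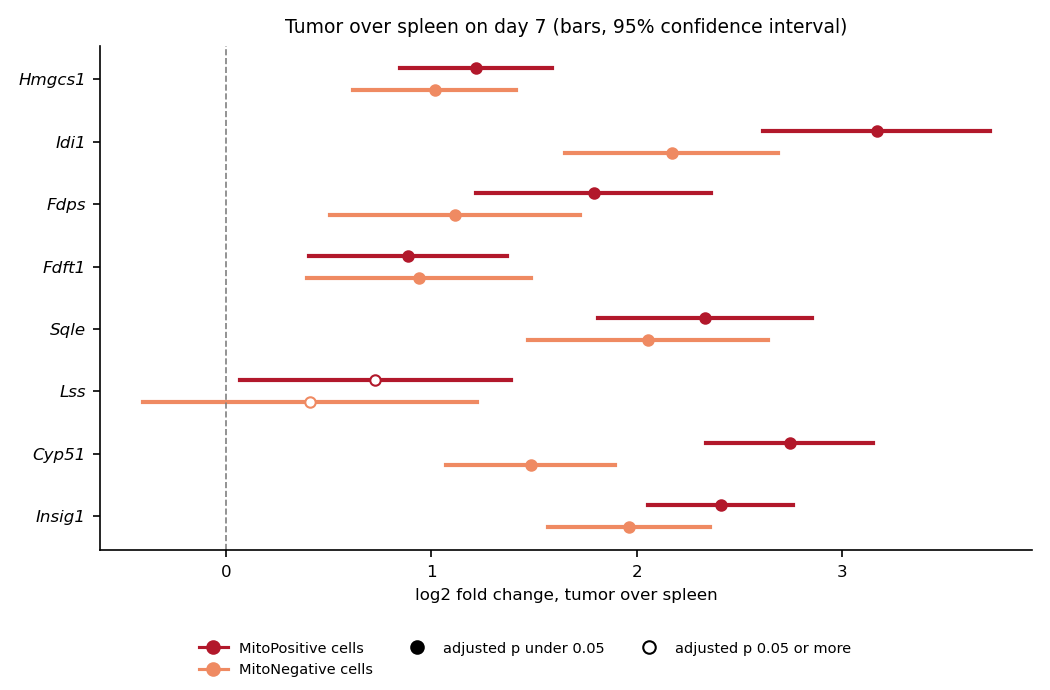
Log2 fold change of tumor over spleen on day 7 for each of the 8 genes, in MitoPositive (dark) and MitoNegative (light) cells, with 95% confidence intervals from edgeR, and filled points where the adjusted p is under 0.05. Idi1 (3.17 and 2.17), Cyp51 (2.75 and 1.48), Insig1 (2.41 and 1.96) and Sqle (2.33 and 2.06) have the largest values, and Lss is unfilled in both arms.

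Cell cycle genes also differed between the tissues in the MitoPositive arm, where 5 of 6 cycling markers and 5 of 5 S phase markers were higher in the tumor. In the MitoNegative arm 0 of 6 cycling markers and 1 of 5 S phase markers were higher, by edgeR. Summed cycling markers ran from 541 to 695 CPM in tumor MitoPositive and 289 to 870 CPM in tumor MitoNegative samples, against 162 to 804 CPM in spleen MitoPositive and 551 to 1040 CPM in spleen MitoNegative samples. Without the cycling clusters 7 members were called higher in each arm. This setting hardly changed the tumor samples, since it kept 172, 990 and 667 of 172, 993 and 670 MitoPositive cells. Of the MitoNegative tumor cells it kept 30, 84 and 110 of 30, 85 and 112. The tumor cluster led by Nrgn, at 755.5 CPM of cycling markers, stayed under the limit of 1000 CPM. The part of cycling cells in the tumor values was thus not tested. Myeloid markers summed to 18.1 to 29.4 CPM in tumor MitoPositive and 18.1 to 183 CPM in tumor MitoNegative samples, against 96.2 to 724 CPM in spleen MitoPositive and 91.9 to 184 CPM in spleen MitoNegative samples. Without the clusters led by genes of other cell types, 8 members were called in the MitoPositive and 7 in the MitoNegative arm. Melanoma markers summed to 1.18 to 4.77 CPM in tumor MitoPositive samples (5 of 6 with UMIs, Tyr at 0) and 4.04 to 7.94 CPM in tumor MitoNegative samples (3 of 6, with Tyrp1, Dct and Tyr at 0), against 4.61 to 6.19 CPM in spleen MitoPositive and 2.65 to 8.67 CPM in spleen MitoNegative samples (6 of 6 in both). After thinning every cell to 3000 UMIs, 6 members were called in MitoPositive cells and 4 (Idi1, Sqle, Cyp51 and Insig1) in MitoNegative cells. Thinning also lowered the UMIs per sample, from 16335342 to 2838000 in tumor MitoPositive of donor 2. The share of all genes called is not given for these alternative fits, so changes in the number of members called are not interpreted. Fdft1 did not pass after thinning in MitoPositive cells (0.54, edgeR adjusted p = 0.139), and Hmgcs1 did there (0.72, adjusted p = 0.0264). In MitoNegative cells Hmgcs1 (0.65, edgeR adjusted p = 0.273), Fdps (0.70, adjusted p = 0.157) and Fdft1 (1.05, adjusted p = 0.102) did not pass. The thinned UMIs of Hmgcs1 per cell overlapped between the tissues in both arms, at 0.0318, 0.0941 and 0.0972 in tumor MitoPositive, against 0.0534, 0.0481 and 0.0833 in spleen MitoPositive samples, and at 0.207, 0.0976 and 0.0727 in tumor MitoNegative, against 0.0640, 0.0582 and 0.0784 in spleen MitoNegative samples.

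Other enzymes of the pathway were also called higher, more of them in MitoPositive than in MitoNegative cells. Over all genes, 28.5% were higher in the tumor in MitoPositive and 20.2% in MitoNegative cells. Of 13 other cholesterol synthesis enzymes, 8 were higher and 0 lower in tumor over spleen in MitoPositive cells, with a median of 0.84, and 4 were higher and 0 lower in MitoNegative cells, with a median of 0.19. Pmvk, phosphomevalonate kinase, was higher by 1.81 ± 0.14 in MitoPositive and 0.74 ± 0.16 in MitoNegative cells. Msmo1 also passed in both arms (0.94 in MitoPositive, 0.60 in MitoNegative cells). Hsd17b7 (1.73), Mvk (1.397), Sc5d (0.65) and Nsdhl (0.55) passed in MitoPositive cells.

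Of 11 measured uptake and transport genes, 2 were higher and 5 lower in tumor MitoPositive cells, and 2 higher and 3 lower in tumor MitoNegative cells. Among all genes, 28.5% were higher and 28.4% lower in MitoPositive cells, and 20.2% higher and 23.1% lower in MitoNegative cells. Stard4, a cytosolic sterol carrier, was higher in the tumor in both arms (1.35 in MitoPositive, 0.81 in MitoNegative cells). Mylip, a ubiquitin ligase gene induced by LXR, was lower, at -2.38 ± 0.24 in MitoPositive and -2.13 ± 0.33 in MitoNegative cells. Lipa and Npc2, which free and export cholesterol in lysosomes, were lower in both arms (-0.96 and -0.76 in MitoPositive, -0.88 and -0.51 in MitoNegative cells). Gramd1b was higher in both arms (0.61 in MitoPositive, 0.50 in MitoNegative cells), and Stard3 (-0.59) and Gramd1a (-0.53) were lower in MitoPositive cells.

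Among 10 genes that control SREBP, 3 were higher and 3 lower in MitoPositive cells, and 2 higher and 2 lower in MitoNegative cells. These counts were near the shares of all genes given above. Srebf2 was higher in the tumor by 0.81 ± 0.14 in MitoPositive (73.6 ± 6.76 against 40.7 ± 6.08 CPM in the spleen, edgeR adjusted p = 2.08e-04) and by 0.42 ± 0.15 in MitoNegative cells (64.3 ± 9.68 against 52.0 ± 12.3 CPM in the spleen, adjusted p = 0.0325). Tmem97, a sterol-responsive endoplasmic reticulum protein, was higher by 2.77 ± 0.25 in MitoPositive and 1.95 ± 0.25 in MitoNegative cells. Insig2, the paralog of Insig1, stood at -0.60 ± 0.20 in MitoPositive and -0.70 ± 0.26 in MitoNegative cells and passed in both. Scap (-0.11 in MitoPositive, -0.22 in MitoNegative cells) and Srebf1 (0.09 in MitoPositive, 0.17 in MitoNegative cells) did not pass in either arm. Mbtps1 (0.40) was higher and Mbtps2 (-0.86) lower in MitoPositive cells, and Rnf139 was lower in both arms (-0.51 in MitoPositive, -0.70 in MitoNegative cells).

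Efflux, esterification and LXR genes went the other way. Of 7 measured, 6 were lower and 0 higher in tumor MitoPositive cells, where 28.4% of all genes were lower. In tumor MitoNegative cells 5 were lower and 0 higher, where 23.1% of all genes were lower. Abcg1, a sterol exporter, averaged 7.89 ± 3.76 CPM in tumor MitoPositive samples, against 32.1 ± 6.52 CPM in spleen MitoPositive samples (log2 -2.30 ± 0.29, edgeR adjusted p = 2.27e-05), and 7.1985 ± 4.16 CPM in tumor MitoNegative samples, against 32.5 ± 8.58 CPM in spleen MitoNegative samples (-2.07 ± 0.39, adjusted p = 8.83e-04). Abca1, another exporter, averaged 0.475 CPM in tumor MitoPositive samples, against 3.29 CPM in spleen MitoPositive samples (-2.65 ± 0.52, adjusted p = 7.1e-04). It averaged 0.870 CPM in tumor MitoNegative samples, against 2.61 CPM in spleen MitoNegative samples, and did not pass there (-1.35 ± 0.64, adjusted p = 0.102). The LXR gene Nr1h3 (-2.58 in MitoPositive, -2.06 in MitoNegative cells) and the cholesterol esterifying enzyme gene Soat2 (-2.16 in MitoPositive, -2.32 in MitoNegative cells) were lower in both arms, as were Nceh1 (-0.99 in MitoPositive, -0.93 in MitoNegative cells) and Nr1h2 (-0.40 in MitoPositive, -0.54 in MitoNegative cells). Macrophages also express Abca1, Abcg1 and Nr1h3, and the myeloid markers given above were lower in tumor than in spleen MitoPositive samples. Their part in these values was not tested. Fatty acid synthesis genes were mixed: Fasn (1.01 in MitoPositive, 1.20 in MitoNegative cells) and Acaca (0.74 in MitoPositive, 0.99 in MitoNegative cells) were higher in both arms and Acss2 was lower (-2.42 in MitoPositive, -2.39 in MitoNegative cells), among 3 higher and 2 lower of 9 in MitoPositive and 2 higher and 2 lower in MitoNegative cells. Of 8 genes of the isoprenoid branch, 1 was higher and 2 lower in MitoPositive cells, and 0 higher and 2 lower in MitoNegative cells, with Ggps1 lower in both (-0.79 in MitoPositive, -0.84 in MitoNegative cells). Counts of fatty acid and isoprenoid genes were near or below the shares of all genes given above.

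Within the tumor, the 8 genes were not spread evenly over the cells. Clusters were made from all genes of the same cells, so their levels are a description, and sizes of clusters are not compared between groups. In the tumor cluster led by Nrgn, Gzmc and Spp1, the summed level was 376 to 390 CPM in the 3 MitoPositive samples and 409 CPM in the 1 MitoNegative sample with at least 20 cells there. In the cluster led by Rgs1 and Vps37b, whose top genes include the heat shock genes Hspa1a and Hspa1b, it was 156 to 168 CPM in the MitoPositive samples. The cluster led by Ifng, Ccl4 and Ccl3 had 137 to 258 CPM in MitoPositive and 182 to 188 CPM in MitoNegative samples. Depth differed between these clusters: median UMIs per cell were 19955 to 26513 in the Nrgn cluster and 4793 to 6660 in the Rgs1 cluster. After thinning to 3000 UMIs, the Nrgn cluster held 0.887 to 1.07 and the Rgs1 cluster 0.433 to 0.565 UMIs of the 8 genes per cell.

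The members did not share this difference alike. Idi1 had 97.5 to 103 CPM in the Nrgn cluster and 10.5 to 18.8 CPM in the Rgs1 cluster of MitoPositive samples. Fdps had 75.7 to 92.3 CPM in the Nrgn cluster and 21.1 to 39.6 CPM in the Rgs1 cluster of these samples. Insig1, by contrast, overlapped, with 36.4 to 44.5 CPM in the Nrgn cluster and 36.2 to 49.99 CPM in the Rgs1 cluster. Insig1 in both tumor clusters stood above its spleen sample values of 6.93 to 12.4 CPM. Idi1 in the Rgs1 cluster of MitoPositive samples had 10.5, 16.2 and 18.8 CPM in donors 1, 2 and 3. The spleen MitoPositive samples of these donors had 7.40, 12.8 and 15.5 CPM of Idi1. These ranges overlapped, and the cluster value was the higher one in each donor. The values rested on few UMIs: the Rgs1 cluster of donor 1 held 60 UMIs of all 8 genes. The spleen value of donor 3 rested on 5 UMIs of Idi1.

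**Figure D4:**
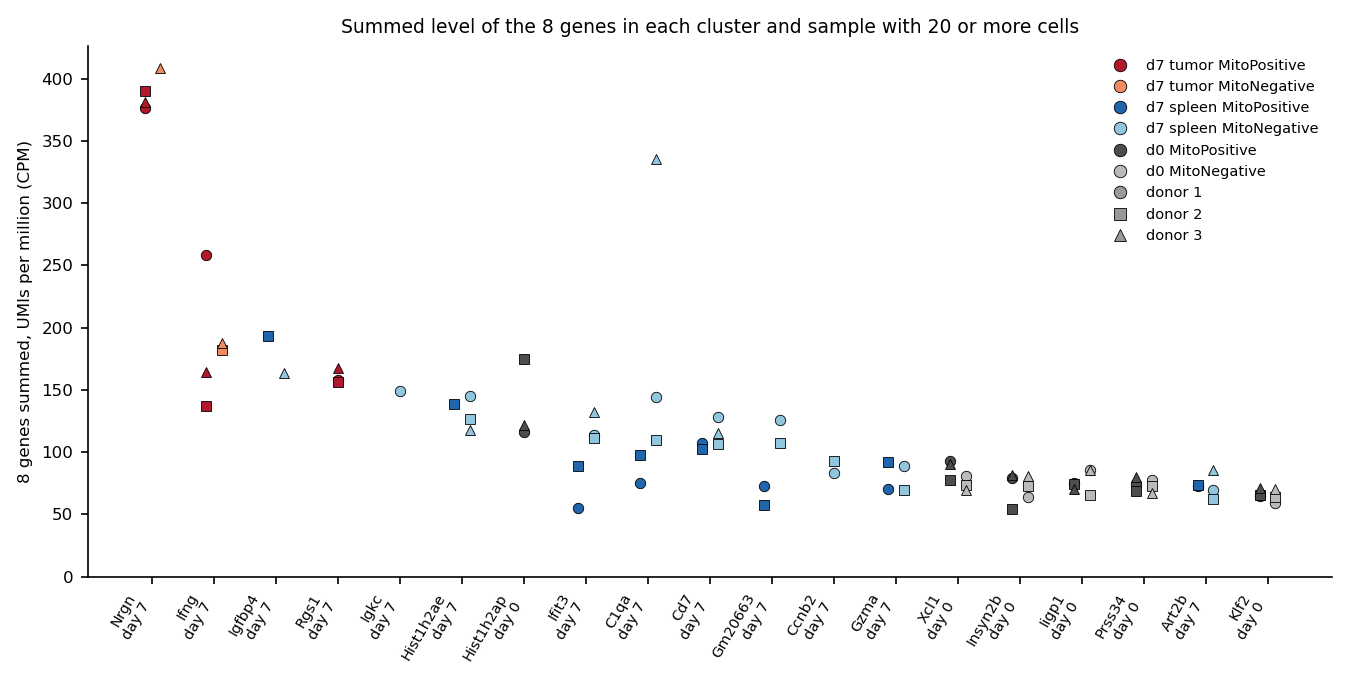
Summed level of the 8 genes (CPM, linear axis from 0) in each cluster and sample with 20 or more cells, clusters named by their leading gene, with the day, ordered by median level, with groups in colour. The day 7 cluster led by Nrgn, from tumor samples, stands highest, at 376 to 409 CPM, and the d0 cluster led by Klf2 comes last, at 59.0 to 71.1 CPM. The single point at 336 CPM is the C1qa cluster, led by macrophage genes, in the spleen MitoNegative sample of donor 3.

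Between the arms in the tumor, 0 of 8 members passed, where 0.193% of all 11905 genes did, and DESeq2 also called 0. Insig1 and Cyp51 had the lowest unadjusted p among the members by edgeR. Insig1, at 38.6, 41.0 and 43.1 CPM in MitoPositive and 26.2, 30.8 and 29.9 CPM in MitoNegative samples, had a log2 difference of 0.54 ± 0.16 (edgeR adjusted p = 0.221, 95% interval 0.19 to 0.89) and was higher in 3 of 3 donors. Cyp51, at 70.2, 63.1 and 70.1 CPM in MitoPositive and 40.3, 44.7 and 62.6 CPM in MitoNegative samples, stood at 0.43 ± 0.18 (adjusted p = 0.402), with 3 of 3 donors higher. Neither gene's values overlapped between the arms. The other 6 members ranged from -0.25 (Fdft1) to 0.27 (Fdps). The 30 to 112 cells of the MitoNegative samples limit this comparison: the 95% interval of Idi1 ran from -0.49 to 0.47 and that of Lss from -0.78 to 0.80. Of the other cholesterol synthesis enzymes, 0 of 13 passed, as did 0 of 11 uptake and transport, 0 of 10 SREBP control and 0 of 7 efflux, esterification and LXR genes.

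In the spleen, 2 of 8 members were lower in MitoPositive cells and 0 higher, where 2.97% of genes were lower and 1.59% higher. The members' median was -0.30, against 0.00 over all genes. Idi1 had 7.40, 12.8 and 15.5 CPM in MitoPositive and 27.0, 16.6 and 19.99 CPM in MitoNegative samples (log2 -1.01 ± 0.26, edgeR adjusted p = 0.0443). Cyp51 had 11.9, 9.85 and 3.09 CPM in MitoPositive and 21.2, 15.7 and 22.6 CPM in MitoNegative samples (-0.84 ± 0.19, adjusted p = 0.0255). Neither gene overlapped between the arms, and both were lower in 3 of 3 donors. The MitoPositive values of donor 3, however, rested on 5 UMIs of Idi1 and 1 UMI of Cyp51. The other 6 members ranged from -0.40 (Fdps) to 0.09 (Insig1). Pmvk was the 1 of 13 other enzymes that passed (-0.59 ± 0.14, adjusted p = 0.0322). Among transport genes Gramd1a (0.57) and Npc1 (0.72), and among fatty acid genes Acss2 (0.79), were higher in MitoPositive cells.

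The spleen calls did not hold in every setting. Without donor 1, Idi1 was at -0.38 (edgeR adjusted p = 0.843) and Cyp51 at -0.83 (adjusted p = 0.351). Without donor 2, Cyp51 did not pass (-0.95, adjusted p = 0.19) and Idi1 was at -1.63 (adjusted p = 0.0275). With the HTODemux hashtag caller, Idi1 was at -0.62 (adjusted p = 0.243) and Cyp51 at -0.57 (adjusted p = 0.381). Cell cycle RNA moved with the arms: 4 of 6 cycling markers and 5 of 5 S phase markers were lower in MitoPositive cells, with summed cycling markers of 162 to 804 CPM in MitoPositive and 551 to 1040 CPM in MitoNegative samples. Without the cycling clusters Idi1 was at -0.91 (adjusted p = 0.125) and Cyp51 at -0.76 (adjusted p = 0.0814). Among the 6 clusters with at least 2 spleen samples of each arm, Idi1 was lower in every MitoPositive than in every MitoNegative sample in 2 and overlapped in 4, and Cyp51 was lower in this way in 3, higher in 1 and overlapped in 2. Several of these rested on few UMIs and few samples, so they are a description. The Gm20663 cluster (median 1711.5 UMIs per cell), with both genes lower, held 16 and 14 UMIs of all 8 genes in MitoPositive samples. It held 76 and 11 in MitoNegative samples. The Gzma cluster, with Cyp51 higher, held 22 and 28 in MitoNegative samples. The C1qa cluster, led by macrophage genes, was among those with Cyp51 lower. In the spleen cluster led by Cd7 and Id3, Idi1 had 9.14 to 14.9 CPM in 2 MitoPositive samples and 14.8 to 23.5 CPM in 3 MitoNegative samples, and Cyp51 12.9 to 17.6 CPM in MitoPositive and 14.6 to 23.8 CPM in MitoNegative samples. In the cluster led by Art2b, Idi1 had 6.83 to 10.2 CPM in MitoPositive and 5.68 to 8.89 CPM in MitoNegative samples, and Cyp51 6.94 to 8.03 CPM in MitoPositive and 7.63 to 9.93 CPM in MitoNegative samples.

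**Figure D5:**
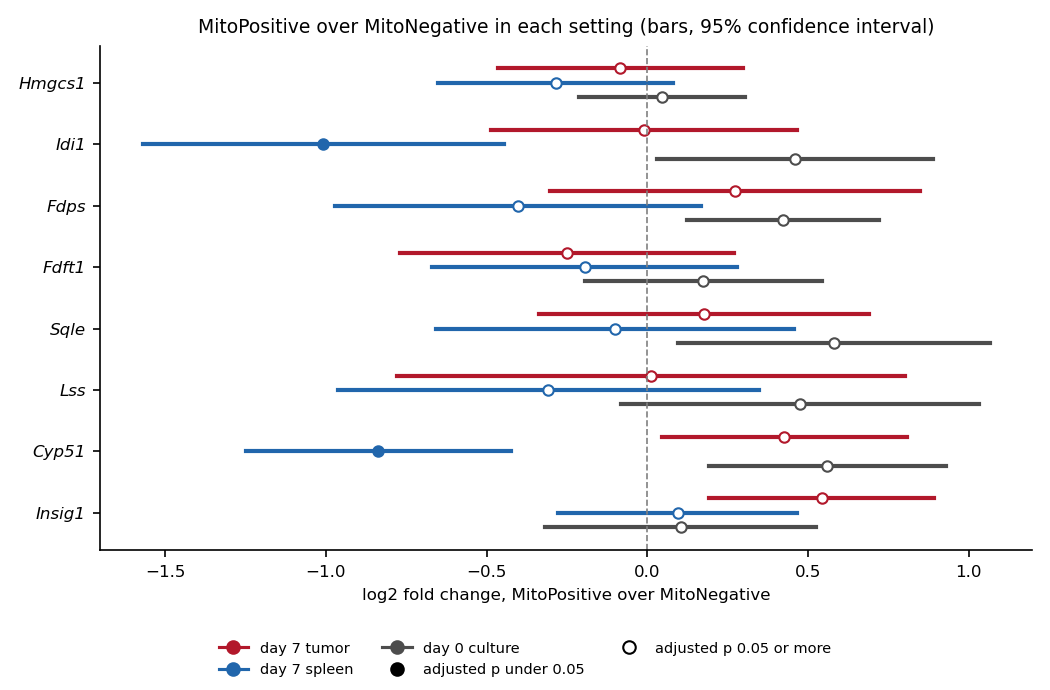
Log2 fold change of MitoPositive over MitoNegative cells for each of the 8 genes in tumor, spleen and d0 culture, with 95% confidence intervals from edgeR and filled points where the adjusted p is under 0.05. Idi1 (-1.01) and Cyp51 (-0.84) in the spleen are the filled points, and all 8 estimates at d0 are above 0.

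Whether the arm difference itself differed between tissues was tested as an interaction. Of the 8 members, 0 passed, where 0.0504% of genes did. The largest was Cyp51, whose arm difference in the tumor exceeded that in the spleen by 1.26 ± 0.26 on the log2 scale (edgeR adjusted p = 0.0916), followed by Idi1 at 1.00 ± 0.34 (adjusted p = 0.248). These were the 2 members with the lowest unadjusted p by edgeR. DESeq2 called Cyp51 (1.18, adjusted p = 0.0122), and so did edgeR without donor 3 (1.38, adjusted p = 0.0101). Without donor 1 Idi1 was at 0.51 (adjusted p = 0.887).

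In culture at d0, all 8 estimates were positive in MitoPositive over MitoNegative cells, and 0 of 8 passed without a donor term, where 9.26% of 11436 genes did. DESeq2 also called 0. The members' median was 0.44, against 0.00 over all genes. Cyp51 had 9.63, 10.9 and 12.7 CPM in MitoPositive and 8.68, 7.21 and 7.60 CPM in MitoNegative samples (log2 0.56 ± 0.17, edgeR adjusted p = 0.0577). Fdps had 15.01, 16.0 and 18.6 CPM in MitoPositive and 12.1, 13.6 and 12.6 CPM in MitoNegative samples (0.42 ± 0.14, adjusted p = 0.0765). Their values did not overlap between the arms, and they were higher in 3 of 3 donors. Sqle had 4.81, 6.99 and 7.09 CPM in MitoPositive and 4.70, 4.63 and 3.88 CPM in MitoNegative samples (0.58 ± 0.23, adjusted p = 0.133). Idi1 had 6.80, 7.78 and 7.09 CPM in MitoPositive and 4.70, 6.69 and 4.85 CPM in MitoNegative samples (0.46 ± 0.20, adjusted p = 0.183). These 4 had the lowest unadjusted p among the members by edgeR. With the donor as a replicate block, Cyp51 (0.56, adjusted p = 0.0144) and Fdps (0.42, adjusted p = 0.0206) were called higher. Without MitoPositive replicate 1, 3 members were called: Cyp51 (0.65), Fdps (0.49) and Sqle (0.73).

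All 6 cycling markers and all 5 S phase markers were higher in MitoPositive cells at d0, with summed cycling markers of 358 to 552 CPM, against 129 to 215 CPM in MitoNegative samples. With the other hashtag map these sums overlapped, at 129 to 507 CPM in MitoPositive and 149 to 552 CPM in MitoNegative samples, and edgeR called 0 of the 6 cycling and 0 of the 5 S phase markers, with 0 at an unadjusted p under 0.05. It called 0 of 11436 genes under that map, of which 393 had an unadjusted p under 0.05. The d0 cluster of cycling cells held 116 to 175 CPM of the 8 genes in its MitoPositive samples, and the other d0 clusters 54.7 to 93.1 CPM. Without cycling clusters the summed level averaged 75.1 CPM for the MitoPositive and 69.8 CPM for the MitoNegative arm, and 0 members were called. After thinning, Idi1 was at -0.24. With the other hashtag map 0 members were called and Fdps was at -0.088. Of the 13 other synthesis enzymes 0 passed. Under the map used, Tmem97 (0.95), the cholesterol esterifying enzyme gene Soat1 (0.36) and the desaturase gene Scd2 (0.52) were higher, and Acss2 (-0.46) was lower, by edgeR.

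Day 7 was set against d0 within each arm. These comparisons cross libraries, so day, tissue and library cannot be told apart. Tumor samples against d0 gave 7 members higher in MitoPositive cells, where 36.8% of 12754 genes were higher and 35.4% lower, and 7 in MitoNegative cells, where 32.8% were higher and 31.7% lower. Idi1 averaged 87.6 ± 4.47 CPM in tumor MitoPositive and 7.22 ± 0.506 CPM in d0 MitoPositive samples, a 14.6-fold difference (log2 3.87 ± 0.20, edgeR adjusted p = 1.19e-11). It averaged 93.1 ± 23.2 CPM in tumor MitoNegative and 5.42 ± 1.11 CPM in d0 MitoNegative samples, a 20.4-fold difference (4.35 ± 0.26, adjusted p = 8.34e-11). Cyp51 (2.85 in MitoPositive and 3.01 in MitoNegative cells), Insig1 (2.78 in MitoPositive, 2.35 in MitoNegative cells), Fdps (2.39 in MitoPositive, 2.57 in MitoNegative cells), Sqle (1.78 in MitoPositive, 2.21 in MitoNegative cells), Hmgcs1 (0.97 in MitoPositive, 1.11 in MitoNegative cells) and Fdft1 (0.80 in MitoPositive, 1.24 in MitoNegative cells) were also higher. Lss was at 0.43 in MitoPositive (adjusted p = 0.118) and 0.89 in MitoNegative cells (adjusted p = 0.0509). Without donor 2 Fdft1 did not pass in MitoPositive cells (0.58, edgeR adjusted p = 0.0801). Of the 13 other synthesis enzymes, 11 were higher in MitoPositive and 7 in MitoNegative cells, and 0 were lower.

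The spleen stood closer to d0. The share of members called higher was near that of all genes in MitoNegative cells and below it in MitoPositive cells. In MitoNegative cells 3 of 8 were higher in the spleen, where 33.0% of genes were higher and 29.0% lower. Idi1 averaged 21.2 ± 5.29 CPM in the spleen and 5.42 ± 1.11 CPM at d0 (log2 2.16 ± 0.25, edgeR adjusted p = 5.66e-07), Cyp51 19.9 ± 3.64 CPM in the spleen and 7.83 ± 0.762 CPM at d0 (1.49 ± 0.17, adjusted p = 6.05e-07), and Fdps 29.9 ± 5.39 CPM in the spleen and 12.8 ± 0.732 CPM at d0 (1.42 ± 0.23, adjusted p = 3.08e-05). The other 5 ranged from 0.06 (Hmgcs1) to 0.46 (Lss). In MitoPositive cells 1 of 8 was higher, Idi1, at 11.9 ± 4.11 CPM in the spleen and 7.22 ± 0.506 CPM at d0 (0.67 ± 0.26, adjusted p = 0.0422), where 23.8% of genes were higher and 22.5% lower. Without donor 2 Idi1 was at 0.20 (adjusted p = 0.668), and without donor 3 it was at 0.71 and did not pass (adjusted p = 0.0762), while Fdps passed there (0.78, adjusted p = 0.00803). Without the cycling clusters, 5 members were called in MitoNegative and 2 in MitoPositive cells, with the share of all genes called there not given. In MitoPositive cells, without a replicate block at d7, Fdps (0.62) was called higher and Sqle (-0.60) lower as well. Cycling markers went in opposite directions in these comparisons: 4 of 6 were lower in spleen than d0 MitoPositive cells and 6 of 6 higher in spleen than d0 MitoNegative cells.

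The arm difference in the spleen was set against that at d0. Idi1 and Cyp51 passed, 2 of 8 members, where 7.46% of genes were lower and 3.58% higher. Idi1 stood at -1.01 in the spleen and 0.46 at d0, a difference of -1.49 ± 0.36 (edgeR adjusted p = 0.0119), and Cyp51 stood at -0.84 in the spleen and 0.56 at d0, a difference of -1.41 ± 0.25 (adjusted p = 0.00105). Fdps (-0.85, adjusted p = 0.11) and Sqle (-0.70, adjusted p = 0.2) did not pass. All 6 cycling markers also moved in this direction. Under the other hashtag map at d0, neither gene passed (Idi1 -1.04, adjusted p = 0.344; Cyp51 -0.86, adjusted p = 0.339). Idi1 also did not pass without donor 1 (-0.81, adjusted p = 0.23) or donor 3 (-1.46, adjusted p = 0.06), and Cyp51 not without donor 2 (-1.45, adjusted p = 0.0636). The arm difference in the tumor minus that at d0 passed for 0 of 8 members, where 0.525% of genes did, with 0 at an unadjusted p under 0.05 by edgeR and 0 calls by DESeq2 or under the other hashtag map.

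The mix of the 8 transcripts differed between the groups along with their sum. Of the members' UMIs, Idi1 made up 25.7% ± 1.08 in tumor MitoPositive and 30.2% ± 4.61 in tumor MitoNegative samples (SD, n = 3 each). Its share was 14.9% ± 5.85 in spleen MitoPositive and 17.8% ± 2.72 in spleen MitoNegative samples. At d0 it was 8.49% ± 0.604 in MitoPositive and 7.57% ± 1.64 in MitoNegative samples. The spleen MitoPositive shares ran from 9.14% to 20.8%, with 24 UMIs of the 8 genes in donor 3. Hmgcs1 had its lowest shares in the tumor and its highest at d0, with 10.1% of members' UMIs in tumor MitoPositive, 12.5% in tumor MitoNegative, 20.4% in spleen MitoPositive, 17.2% in spleen MitoNegative, 25.5% in d0 MitoPositive and 29.9% in d0 MitoNegative samples. The share of Lss was 1.61% in tumor MitoPositive and 2.10% in tumor MitoNegative samples, and 4.08% to 5.86% in the other 4 groups. Insig1 lay between 6.79% and 12.002% in the 6 group means.

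Within groups, the members varied little together. Over the 14 samples of at least 100 cells, from 5 groups, each member's log2 CPM minus its group mean had a Pearson correlation with the mean of the other 7 between -0.01 (Fdft1) and 0.54 (Lss). Among 6221 genes of at least 20 CPM, those most like the mean of the 8 were Cox7b (0.88), Cenpa (0.88), Gm19585 (0.85), Snrpb2 (0.85), Plac8 (0.82), Tpx2 (0.82), Wdr61 (0.81), Cenpe (0.81), Nusap1 (0.81) and Hmgb3 (0.80). The sterol desaturase gene Sc5d came at rank 24 (0.74), Fasn at rank 120 (0.61) and Srebf2 at rank 660 (0.37). The samples share donors and libraries, and no test was made of these values. With 14 samples and 6221 genes compared, the highest correlations can be this large by chance, so the list is a description.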

How the data were processed

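The libraries were made with the 10x 3′ v3.1 kit, per the labels' protocols. The deposited matrices hold raw UMI counts of genes and hashtags, written by Cell Ranger 7.0.0, per the file headers. The submitters' processing notes also name Seurat 4.0.5 and the build mm10 (GRCm38). The setting for strand in counting is not given in the sources used here.

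Barcodes with at least 500 genes, under 15% mitochondrial UMIs and a top hashtag of at least 10 UMIs and 3 times the next were kept, which leaves out barcodes with a second strong hashtag. Doublets within a hashtag were not sought. Cells were clustered per day with the Leiden method at resolution 0.5 on a graph of 15 neighbours, from 30 principal components of the 2000 most variable genes (leidenalg 0.10.2, scanpy 1.11.5). The 2 clusters with Cd3 RNA in under 50% of cells were left out. In alternatives, 3 clusters under 90% were left out as led by genes of other cell types, and 3 clusters over 1000 CPM of cycling markers as cycling; these 2 limits were set after the data were seen.

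UMIs were summed per hashtagged sample. Samples, not cells, are the replicates. Counts were tested over all genes passing filterByExpr with edgeR 4.0.16 in R 4.3.3 (TMM, quasi-likelihood, Benjamini-Hochberg, threshold 0.05). The 6 d0 samples were fitted without a donor term, the 12 d7 samples with donor (1 library each) as a block, and comparisons of days in a fit of 18 samples with that block at d7. Standard errors and 95% intervals were derived from edgeR's F test (without its Poisson bound) and degrees of freedom. The fits were tested on simulated counts. Same-numbered samples come from the same donor. Their deviations from group means correlated at 0.34, 0.083 and 0.27 at d0, -0.068, 0.033 and -0.058 between arms in the spleen, and 0.053, -0.075 and 0.14 in the tumor. Alternatives were HTODemux (Seurat 5.3.0, quantile 0.99), DESeq2 1.42.0, its size factors, no count filter, no mitochondrial limit, thinned cells, other cell choices, other donor terms, the other hashtag map (its levels added after the data were seen) and leaving out samples or donors.

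The members and lists were chosen with earlier results of these data known. Members are named or covered by a range in every comparison. List genes that passed are named between the arms. For tumor over spleen some of those that passed are named and the others are in the counts only. Elsewhere they are given as counts or left out. Srebf2, Scap, Srebf1 and Abca1 are given for tumor over spleen whatever their values. Some list genes are not reported here by name, but are part of the counts and medians of their lists. The genes most like the members are the 10 with the highest correlation. Intervals of shares cover counting error only.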

Additional observations from a re-analysis of the deposited data

Results flagged for a closer look

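The arm difference (MitoPositive minus MitoNegative) of Idi1 and Cyp51 differed between the spleen at d7 and d0, by edgeR's test of the difference itself. Idi1 had log2 differences of -1.01 in the spleen and 0.46 at d0, and the test gave -1.494 (adjusted p = 0.0119). Cyp51 had -0.84 in the spleen and 0.56 at d0, and the test gave -1.4143 (adjusted p = 0.00105). In the same test 6 of 6 cycling markers and 5 of 5 S phase markers were lower, and their part in these values was not tested. Without cycling clusters the values were -1.02 for Idi1 (adjusted p = 0.164) and -1.14 for Cyp51 (adjusted p = 0.0326).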

How the results depend on the processing

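Of 176 counts of members called under alternatives, 143 stayed within 1.5 times the reported count and 33 did not. The cause was not tested. Shares of all genes called are not given beside these counts, so a rise or fall cannot be read as particular to the members. For the arms at d0 (0 reported), 2 members were called with no count filter and 2 with a replicate block, and leaving out single samples gave 0 to 3. For the arms in the spleen (2 reported), HTODemux and leaving out cycling clusters gave 0 each, thinned cells, leaving out samples under 50 cells and fitting the compared groups alone gave 1 each, and leaving out a donor gave 0 to 2. HTODemux kept 604 cells in the spleen MitoNegative sample of donor 1, against 3421. For tumor over spleen in MitoNegative cells (7 reported), thinned cells gave 4, and leaving out a donor gave 5 to 7. For the difference of the arm differences between tissues (0 reported), no count filter gave 2, leaving out clusters led by other cell types 1, DESeq2 1, and leaving out a donor 0 to 1. For spleen over d0 in MitoPositive cells (1 reported), HTODemux, size factors, no count filter, thinned cells, leaving out cycling clusters, leaving out clusters led by other cell types and the other hashtag map gave 2 each, no replicate block 3, leaving out samples under 50 cells 0, and leaving out a donor 0 to 1. For spleen over d0 in MitoNegative cells (3 reported), leaving out cycling clusters gave 5. For the spleen arm difference minus that at d0 (2 reported), HTODemux, thinned cells and leaving out cycling clusters gave 1 each, the other hashtag map 0, and leaving out any donor 1. The replicate block changed no other count by more than 1.5 times. Of 750 values of single members with an unadjusted p under 0.05, 685 kept their direction and side of the threshold, 33 no longer passed, 30 newly passed and 2 reversed: Idi1 between the arms at d0 with thinned cells (-0.24) and Fdps there with the other hashtag map (-0.088). Of 657 values of the other members, 65 changed sign and 3 passed. Summed levels moved by more than 1 SD in 4 of 30 cases, to 75.7 CPM (d0 MitoPositive), 62.3 CPM (d0 MitoNegative) and 275 CPM (tumor MitoPositive) with thinned cells and to 75.1 CPM (d0 MitoPositive) without cycling clusters. Size factors moved the share of higher among called genes from 43.5% to 23.5% for the arms in the tumor, from 66.7% to 0% for their difference between tissues, from 32.4% to 43.4% for spleen minus d0 and from 50.7% to 39.5% for tumor minus d0 arm differences. Samples of 30 to 112 cells (tumor MitoNegative) and of 49 cells (spleen MitoPositive, donor 3) limit what the arms at d7 can show, and small differences were not detectable at this depth.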
